A study of Mus musculus with 12 samples.

Results

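The transcripts described here are those of the D cyclins, of the kinases they switch on and of the genes that hold these kinases back. Rows were taken by gene symbol, from a list drawn up with earlier results of these data known, and all 10 of 10 were found: the D cyclins Ccnd1, Ccnd2 and Ccnd3, the kinases Cdk4 and Cdk6, the inhibitors Cdkn1b, Cdkn2c and Cdkn2d, the retinoblastoma gene Rb1, and Ccng2. The untreated, stimulated and additional tables hold 55359, 56691 and 55401 genes. Splenic B cells of mice were taken by CD43 magnetic-bead negative selection, and their poly(A) RNA was sequenced in 12 libraries. The 5 groups are DKO cells stimulated in culture with anti-CD40 at 1 µg/mL and anti-IgM at 10 µg/mL for 48 h (2 libraries), WT cells stimulated in the same way (2 libraries), untreated DKO cells (3 libraries), untreated WT cells (3 libraries), and additional untreated WT cells (2 libraries, deposited in a table of their own). DKO cells are double knockouts of hnRNP A1 and hnRNP A2B1, proteins that bind RNA and take part in splicing and mRNA export. The sources used here do not give the Cre driver, strain, age or number of animals. No label says that the libraries of a group are of different animals, so a p-value covers only the spread among these libraries. In each untreated group a library was of another animal than the rest, by the counts of sex-linked genes given below. Otherwise this spread may be technical.

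D cyclins bind CDK4 and CDK6, and the complexes phosphorylate RB, which then lets go of E2F factors and allows entry into S phase. Cyclin D2 is the D cyclin that resting B cells raise when the B cell receptor is engaged. The INK4 inhibitors p18 (Cdkn2c) and p19 (Cdkn2d) bind CDK4 and CDK6 themselves, whereas p27 (Cdkn1b) binds whole cyclin-CDK complexes. Cyclin G2 (Ccng2) is an unconventional cyclin of arrested cells, and Ccng2 and Cdkn1b are known targets of FoxO factors.

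The libraries held 15090953 to 21731893 counts. Hnrnpa1 in DKO libraries was at 17.1% and 14.7% of the WT mean in stimulated cells and at 11.3%, 29.2% and 14.3% in untreated cells. Hnrnpa2b1 was at 21.2% and 24.4% in stimulated cells and at 18.6%, 34.4% and 21.2% in untreated cells. Counts over whole genes do not show which exons are deleted. In the untreated groups, DKO replicate 1 and WT replicate 2 had 31730 and 34544 counts of Xist, the inactive X chromosome's RNA. Every other library had at most 103. Ddx3y, a gene of the Y chromosome, had 1 and 0 counts in these libraries and at least 1773 in every other. By both genes, DKO replicate 1 and WT replicate 2 are of female mice and the other libraries of male mice. The column headers number 1 stimulated WT library differently from its label, and it is called the unnumbered WT library. B cell markers summed to 3981 to 4794 CPM (counts scaled to library size) in stimulated DKO cells, 5035 to 5224 CPM in stimulated WT cells, 2633 to 3016 CPM in untreated DKO cells and 3058 to 3387 CPM in untreated WT cells. Of the 6 T cell markers, Cd3d, Cd3e, Cd4 and Cd8a were under 1 CPM in all 12 libraries, and Cd3g was at most 1.65 CPM. The list nevertheless summed to 132 to 190 CPM in stimulated DKO cells, 153 to 173 CPM in stimulated WT cells, 47.1 to 82.8 CPM in untreated DKO cells and 74.6 to 98.6 CPM in untreated WT cells, nearly all of it Lck. The 4 stromal and endothelial markers, of which Col1a1 and Col3a1 were under 1 CPM throughout, summed to 49.0 to 61.6 CPM in stimulated DKO cells, 106 to 115 CPM in stimulated WT cells, 25.3 to 34.7 CPM in untreated DKO cells and 53.3 to 73.3 CPM in untreated WT cells. The 3 plasma cell markers summed to 48.7 to 65.0 CPM in stimulated DKO cells, 30.5 to 42.9 CPM in stimulated WT cells, 14.2 to 22.04 CPM in untreated DKO cells and 24.9 to 45.5 CPM in untreated WT cells. The 4 dendritic cell markers summed to 57.9 to 63.4 CPM in stimulated DKO cells, 31.4 to 39.0 CPM in stimulated WT cells, 71.8 to 77.4 CPM in untreated DKO cells and 55.9 to 74.8 CPM in untreated WT cells. The 5 monocyte and macrophage markers summed to 55.7 to 62.3 CPM in stimulated DKO cells, 63.8 to 72.0 CPM in stimulated WT cells, 38.8 to 67.1 CPM in untreated DKO cells and 65.0 to 69.8 CPM in untreated WT cells. The part of all these markers in the results was not tested. These are bulk samples, in which fewer cells of a type and less RNA per cell cannot be told apart.

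The sequences of 4 promoters are shown, those of the members that passed the test between DKO and WT cells and that of Cdk4, the most abundant member per length in 4 of the 5 groups. Each run is the 250 bases before the start of the gene, from RefSeq on GRCm38.p6, read 5′ to 3′ on the gene's strand. RefSeq windows matched 7 of the 10 members. Capitals mark matches, on either strand, to the E-box CACGTG bound by MYC and MAX, the CCAAT box, the GC box GGGCGG, the FoxO motif GTAAACA and the E2F motif TTTNNCGC. In these 4 windows no matches of different motifs overlap.
Cdk6 promoter, chr5:3343643-3343892, plus strand: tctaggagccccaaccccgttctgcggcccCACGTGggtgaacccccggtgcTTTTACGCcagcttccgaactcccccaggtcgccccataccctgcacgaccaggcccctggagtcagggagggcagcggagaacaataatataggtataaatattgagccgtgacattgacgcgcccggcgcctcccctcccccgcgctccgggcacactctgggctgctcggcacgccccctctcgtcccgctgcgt
Cdkn2d promoter, chr9:21291210-21291459, minus strand: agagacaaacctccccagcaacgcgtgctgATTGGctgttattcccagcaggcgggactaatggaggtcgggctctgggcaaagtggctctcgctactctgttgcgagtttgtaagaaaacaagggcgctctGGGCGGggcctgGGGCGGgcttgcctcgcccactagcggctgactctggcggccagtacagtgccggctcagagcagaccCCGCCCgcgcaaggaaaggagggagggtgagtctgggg
Ccng2 promoter, chr5:93267323-93267572, plus strand: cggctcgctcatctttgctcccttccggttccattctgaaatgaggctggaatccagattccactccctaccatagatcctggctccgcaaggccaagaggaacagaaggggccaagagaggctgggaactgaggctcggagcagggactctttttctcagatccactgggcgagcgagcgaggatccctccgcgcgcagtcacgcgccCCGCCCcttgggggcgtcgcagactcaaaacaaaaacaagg
Cdk4 promoter, chr10:127063285-127063534, plus strand: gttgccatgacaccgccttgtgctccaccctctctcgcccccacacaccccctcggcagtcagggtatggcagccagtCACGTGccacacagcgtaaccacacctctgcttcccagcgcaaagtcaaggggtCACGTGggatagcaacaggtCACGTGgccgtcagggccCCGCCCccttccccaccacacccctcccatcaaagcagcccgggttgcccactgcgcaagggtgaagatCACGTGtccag
The Cdk6 window holds 1 E-box and 1 E2F motif. The Cdkn2d window holds 3 GC boxes and 1 CCAAT box, the Ccng2 window 1 GC box, and the Cdk4 window 4 E-boxes and 1 GC box. Among all 32851 windows of the same length, 6.021% hold an E-box, 32.74% a GC box, 33.85% a CCAAT box, 4.28% the E2F motif and 3.166% the FoxO motif. These matches describe the letters only.

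The transcripts were also read for UAGGG, a motif that hnRNP A1 is known to bind, written TAGGG in the DNA letters of the annotation. It was looked for in the longest protein-coding transcript of each member (GENCODE M21), on the transcript's own strand only. These are spliced transcripts, so introns were not read. The 11525-base Cdk6 transcript holds 10 sites, or 0.868 per kb. Ccnd1 and Cdkn1b hold 5 sites each, Ccnd2 and Cdkn2c 3 each, Cdk4 2, and Ccnd3 and Rb1 1 each, while Cdkn2d and Ccng2 hold none. Over 11667 tested genes the median was 0.378 sites per kb, the quartiles were 0 and 0.695, and 68.95% held at least 1 site. The runs below are the first 3 sites of Cdk6, shown because it has the most sites of the members, with the motif in capitals and 10 bases to each side.
Cdk6 site 1: aagactggccTAGGGacgtggccct
Cdk6 site 2: gctgccagtgTAGGGtgggaatcca
Cdk6 site 3: cttgtcacctTAGGGaatcacttcc
Per kb, Ccnd1 (1.34 sites), Cdkn2c (1.21), Cdkn1b (1.10) and Cdk4 (0.974) were denser in sites than Cdk6. No test was made of so few genes, and the part of these sites in the changes was not tested.

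Levels per kb of exon were ordered in much the same way in the stimulated and untreated groups. The length is that of all exons of a gene, and the order depends on it. For Ccnd3 it is 8775 bases, against 2113 in its longest protein-coding transcript. Cdk4 stood highest per kb of exon, at 85.9 ± 24.1 CPM per kb in stimulated DKO cells, 70.3 ± 5.52 in stimulated WT cells (SD, n = 2 each), 108 ± 5.78 in untreated DKO cells and 98.1 ± 5.67 in untreated WT cells (SD, n = 3 each). Ccnd2 came next in all 4 groups and Cdkn1b after it, although Ccnd2 and Cdkn1b overlapped in stimulated WT cells. Ccnd1 was the lowest member in every group, under 1 CPM per kb, and Cdkn2d was next to lowest in these 4 groups. Between these ends lay Cdk6, Rb1, Ccnd3, Cdkn2c and Ccng2. In stimulated DKO cells, Cdkn1b and Cdk6, Cdk6 and Rb1, and Rb1 and Cdkn2c each overlapped as neighbours in the order. In untreated DKO cells, by contrast, Cdkn1b, Cdk6 and Rb1 each stood clear of the next member down.

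**Figure D1:**
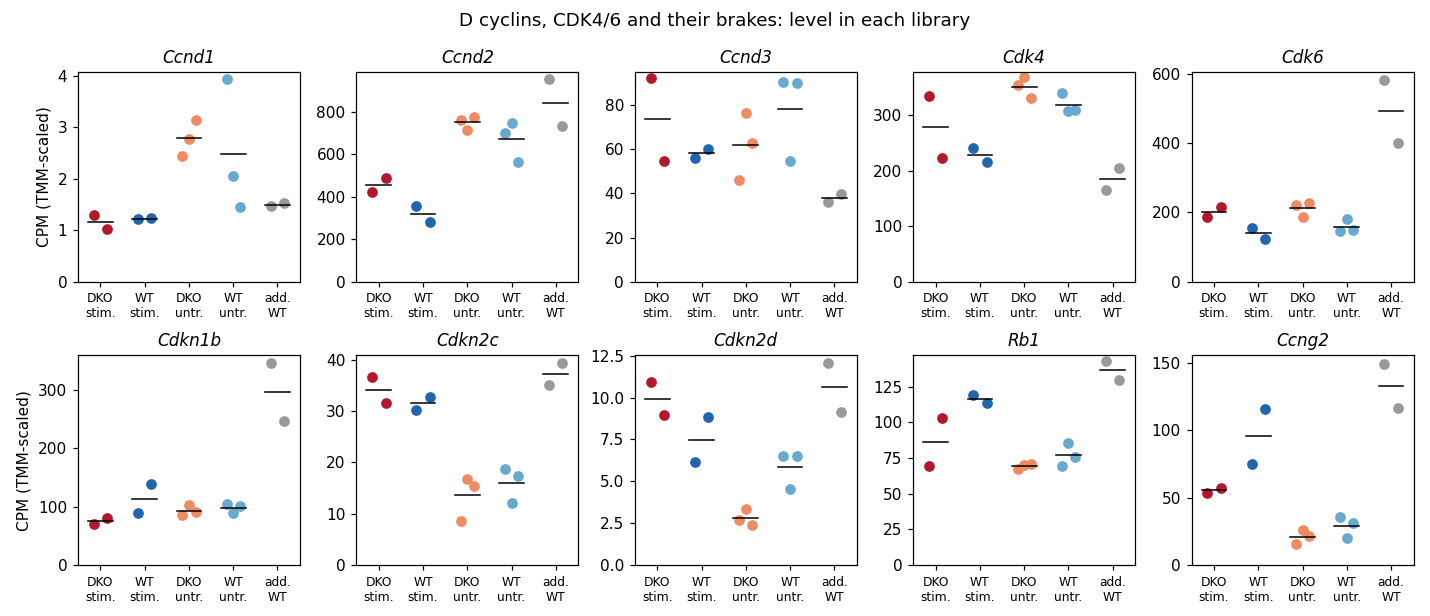
Level of each member in each library, in CPM on a linear axis that starts at 0, by group (stim., stimulated; untr., untreated; add. WT, additional WT); points are libraries and lines are group means. Cdkn2d is lower in all 3 untreated DKO libraries than in the 3 untreated WT libraries, and Ccng2 is lower in both stimulated DKO libraries than in both stimulated WT libraries.

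D cyclin counts per kb of exon were mostly of Ccnd2 in these cells. Per kb, Ccnd2 made up 84.8% ± 5.94 of D cyclin counts in stimulated DKO cells, 83.0% ± 3.01 in stimulated WT cells (SD, n = 2 each), 91.3% ± 2.13 in untreated DKO cells and 88.1% ± 3.72 in untreated WT cells (SD, n = 3 each). Ccnd3 supplied nearly all of the rest and Ccnd1 under 1% in each library. By all exons Ccnd2 is 9409 and Ccnd3 8775 bases long, whereas their longest protein-coding transcripts have 6330 and 2113 bases. With transcript lengths Ccnd3 would make up a larger share, so these percentages hold only for exon lengths. Between DKO and WT cells no D cyclin passed the test, in stimulated or in untreated cells.

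Ccnd2 (ENSMUSG00000000184, chr6:127102125-127129156 on GRCm39, minus strand) was at 421 and 491 CPM in stimulated DKO libraries, against 358 and 283 CPM in stimulated WT libraries. Untreated DKO libraries were at 763, 715 and 777 CPM, against 702, 747 and 566 CPM in untreated WT libraries. The stimulated groups did not overlap and the untreated groups did. Its log2 fold change, DKO over WT, was 0.45 ± 0.20 in stimulated cells (SE, adjusted p = 0.178) and 0.15 ± 0.10 in untreated cells (adjusted p = 0.325), by edgeR's quasi-likelihood test. With the spread taken from 1 fit over 10 libraries, the stimulated difference passed the threshold of 0.05 (0.49, adjusted p = 0.0469).

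Ccnd3, which lymphocytes carry beside cyclin D2, was at 92.1 and 54.8 CPM in stimulated DKO libraries, against 56.1 and 60.2 CPM in stimulated WT libraries. Its untreated levels were 45.9, 76.3 and 62.9 CPM in DKO libraries, against 90.2, 54.6 and 90.1 CPM in WT libraries. In each comparison the groups overlapped. The lowest untreated library of each genotype was the one with high Xist counts. The untreated log2 fold change was -0.36 ± 0.22 (SE, adjusted p = 0.290). With a term for Xist status, chosen after seeing the data, it was -0.35 and passed the threshold (adjusted p = 0.00658). In stimulated cells it was 0.26 ± 0.22 (adjusted p = 0.458), and leaving out DKO replicate 1, the high library, gave -0.11. Ccnd3 lies over Bysl on the genome, whose mean level was 60.5 CPM against 63.2 CPM for Ccnd3. Since the strand setting of the counting is not given, Ccnd3 values are uncertain.

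Ccnd1 had only 25 and 17 counts in stimulated DKO libraries, 24 and 23 in stimulated WT libraries, 37, 43 and 47 in untreated DKO libraries, and 77, 34 and 29 in untreated WT libraries. It overlaps LTO1, which averaged 15.8 CPM against 1.97 CPM for Ccnd1, so even these counts are uncertain. The untreated groups overlapped and so did the stimulated ones. Ccnd1 had log2 fold changes of -0.14 ± 0.44 in stimulated cells (SE, adjusted p = 0.862) and 0.15 ± 0.36 in untreated cells (adjusted p = 0.805), so a difference was not detectable at this depth.

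**Figure D2:**
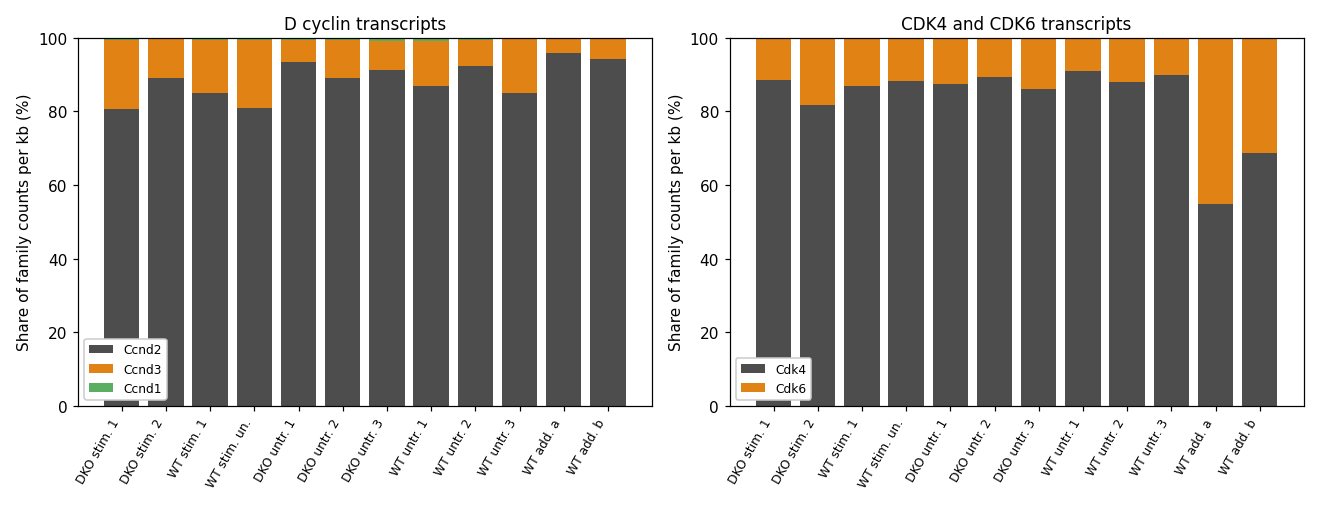
Share of each D cyclin (left) and of Cdk4 and Cdk6 (right) in the counts per kb of exon of its family, in percent, with 1 bar per library (stim., stimulated; untr., untreated; add., additional; un., the unnumbered library). Ccnd2 fills over 80% of every bar on the left, and Cdk4 fills over 80% of every bar on the right except those of the 2 additional WT libraries.

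Of the kinases, Cdk6 was higher in untreated DKO cells. Cdk6 (ENSMUSG00000040274, chr5:3391485-3581008 on GRCm39, plus strand; 1 E-box, 1 E2F motif and 10 UAGGG sites above) was at 187 and 216 CPM in stimulated DKO libraries, against 156 and 124 CPM in stimulated WT libraries. In untreated cells it was at 221, 187 and 227 CPM in DKO libraries, against 145, 181 and 149 CPM in WT libraries. In stimulated and in untreated cells every DKO library was above every one of these WT libraries. The additional untreated WT libraries, at 583 and 402 CPM, were above every DKO library. The log2 fold change was 0.41 ± 0.11 in untreated cells (SE, adjusted p = 0.0301) and 0.46 ± 0.20 in stimulated cells (adjusted p = 0.150). In the single fit over 10 libraries the stimulated change passed (0.50, adjusted p = 0.0411) and the untreated one did not (0.42, adjusted p = 0.0556). The untreated call was lost on leaving out WT replicate 1 (adjusted p = 0.0968) or 3 (0.135), or DKO replicate 1 (0.0657) or 3 (0.106), and counting the additional WT libraries as WT turned the change to -0.50 (adjusted p = 0.536).

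Cdk4 was at 334 and 224 CPM in stimulated DKO libraries, against 241 and 216 CPM in stimulated WT libraries. Untreated DKO libraries were at 355, 368 and 331 CPM, against 340, 308 and 308 CPM in untreated WT libraries. The groups overlapped in each case, and the log2 fold changes of 0.21 ± 0.21 in stimulated cells (SE, adjusted p = 0.523) and 0.13 ± 0.07 in untreated cells (adjusted p = 0.256) did not pass. Cdk4 overlaps Tspan31, which averaged 45.8 CPM against 283 CPM for Cdk4, so part of its counts is uncertain.

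The make-up of each family was compared within libraries, where no scaling between libraries enters. The log2 ratio of Ccnd2 to Ccnd3 per kb was 2.58 ± 0.69 in stimulated DKO cells and 2.35 ± 0.31 in stimulated WT cells (SD, n = 2 each; exact permutation p = 1). In untreated cells it was 3.54 ± 0.41 in DKO and 3.03 ± 0.58 in WT (SD, n = 3 each; exact permutation p = 0.3). The log2 ratio of Cdk6 to Cdk4 was -2.55 ± 0.56 in stimulated DKO cells and -2.82 ± 0.12 in stimulated WT cells (SD, n = 2 each; exact permutation p = 1), and -2.84 ± 0.22 in untreated DKO cells and -3.12 ± 0.23 in untreated WT cells (SD, n = 3 each; exact permutation p = 0.2). None of the 4 two-sided tests can fall below 0.05, since the smallest p is 0.333 with 2 against 2 and 0.1 with 3 against 3.

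Among the inhibitors, Cdkn2d was lower in untreated DKO cells and Cdkn1b and Cdkn2c did not pass the test. Cdkn2d (ENSMUSG00000096472, chr9:21199706-21202703 on GRCm39, minus strand) was at 2.70, 3.36 and 2.41 CPM in untreated DKO libraries, against 6.54, 4.55 and 6.50 CPM in untreated WT libraries. These are 41, 52 and 36 counts in DKO and 128, 75 and 130 counts in WT, and the groups did not overlap. Its log2 fold change was -1.07 ± 0.23 (SE, adjusted p = 0.0145). The call was lost on leaving out WT replicate 3 (adjusted p = 0.0642) or DKO replicate 3 (0.0629). In stimulated cells Cdkn2d was at 10.9 and 8.95 CPM in DKO libraries, against 6.13 and 8.83 CPM in WT libraries. The change there was 0.34 ± 0.25 (adjusted p = 0.400), with both DKO libraries above both WT libraries by a margin that was narrow.

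Cdkn1b was at 69.6 and 79.8 CPM in stimulated DKO libraries, against 89.3 and 138 CPM in stimulated WT libraries. Its untreated levels were 84.9, 103 and 91.3 CPM in DKO libraries, against 104, 88.9 and 102 CPM in WT libraries. The stimulated groups did not overlap, and the unnumbered WT library stood highest. The log2 fold change in stimulated cells was -0.67 ± 0.23 (SE, adjusted p = 0.0893). It passed in the single fit over 10 libraries (-0.63, adjusted p = 0.0272) and without the filter on low counts (-0.66, adjusted p = 0.0118). Leaving out each stimulated library in turn gave -0.95 to -0.32. In untreated cells the change was -0.09 ± 0.10 (adjusted p = 0.539).

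Cdkn2c was at 36.6 and 31.6 CPM in stimulated DKO libraries, against 30.3 and 32.8 CPM in stimulated WT libraries. Untreated DKO libraries had 8.51, 16.8 and 15.4 CPM, against 18.7, 12.1 and 17.3 CPM in untreated WT libraries. The groups overlapped in stimulated and in untreated cells. The log2 fold changes were 0.04 ± 0.17 (SE, adjusted p = 0.884) and -0.26 ± 0.26 (adjusted p = 0.516).

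**Figure D3:**
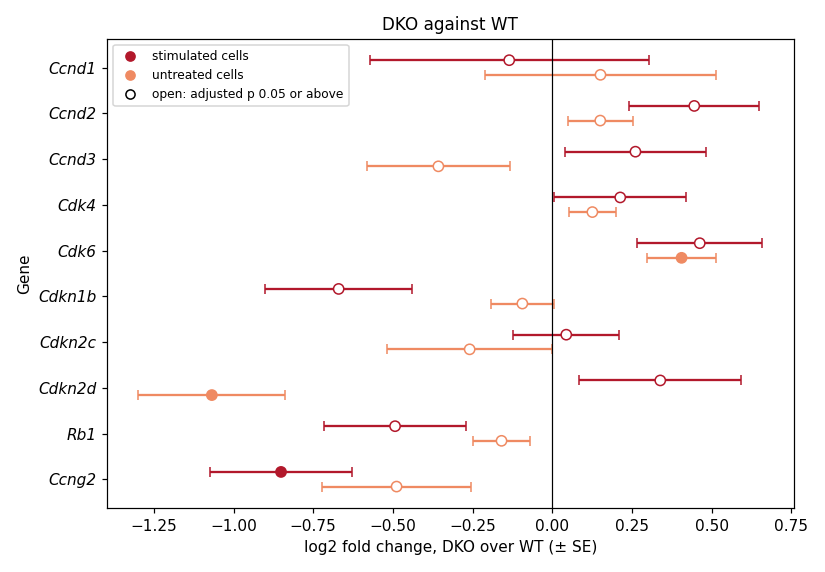
Log2 fold change of each member, DKO over WT, in stimulated and untreated cells; points are edgeR estimates, bars are ± 1 SE, and filled points have an adjusted p under 0.05. Filled points are Ccng2 in stimulated cells (-0.85) and Cdk6 (0.41) and Cdkn2d (-1.07) in untreated cells.

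Ccng2 was lower in stimulated DKO cells, and Rb1 did not pass. Ccng2 (ENSMUSG00000029385, chr5:93415116-93424090 on GRCm39, plus strand) was at 53.6 and 57.0 CPM in stimulated DKO libraries, against 74.9 and 116 CPM in stimulated WT libraries. Both DKO libraries were below both WT libraries, which themselves lay well apart. Its log2 fold change was -0.85 ± 0.22 (SE, adjusted p = 0.0417). Without the unnumbered WT library it was -0.50 (adjusted p = 0.541). In untreated cells Ccng2 was at 15.4, 25.7 and 21.8 CPM in DKO libraries, against 35.8, 20.4 and 31.1 CPM in WT libraries. The groups overlapped, with the lowest library of each genotype again the one with high Xist counts, as also for Cdkn1b and Cdkn2c. The untreated change was -0.49 ± 0.23 (adjusted p = 0.173), and it passed with a term for Xist status (-0.48, adjusted p = 0.00457) and without the 2 Xist-high libraries (-0.50, adjusted p = 0.0152). Both settings were chosen after seeing the data. Over all genes, 4392 were called with the term and 3421 without these libraries, against 2638 in the main fit.

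Rb1, the pocket protein that D cyclin kinases phosphorylate, was at 69.7 and 103 CPM in stimulated DKO libraries, against 119 and 114 CPM in stimulated WT libraries. Without treatment it was at 67.5, 70.2 and 70.5 CPM in DKO libraries, against 69.7, 85.4 and 75.6 CPM in WT libraries. Only the stimulated groups were apart. The log2 fold change was -0.49 ± 0.22 in stimulated cells (SE, adjusted p = 0.173) and -0.16 ± 0.09 in untreated cells (adjusted p = 0.236). The stimulated value was -0.20 without DKO replicate 1 and -0.81 without DKO replicate 2, each a comparison of 1 DKO library with 2 WT libraries. Rb1 overlaps Rcbtb2 and Lpar6, which averaged 22.6 and 14.8 CPM against 93.2 CPM.

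Counted together, 1 of the 10 members was called in stimulated cells (0 higher, 1 lower), where 5.09% of 14430 tested genes were called higher and 6.17% lower. In untreated cells 2 were called (1 higher, 1 lower), where 8.81% of 13561 tested genes were called higher and 10.6% lower. All 10 passed the filter on low counts in every comparison. Groups did not overlap for 6 of 10 members in stimulated cells, where 61% of genes had groups apart, and for 2 of 10 in untreated cells, where 39.1% did. The stimulated share is close to that of all genes, and the untreated share is below it. The median log2 fold change of the members was 0.13 in stimulated cells, against -0.03 over all genes tested, and -0.13 in untreated cells, against -0.01.

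The stimulated comparison was also made without each library in turn. Such a fit leaves 1 library in an arm, which is assumed to vary like the 2 libraries of the other arm. Its p-values are weak evidence, so its counts of calls are not given. Over these fits the log2 fold change of Ccng2, the 1 member called, ranged over -1.13 to -0.50.

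Whether the difference between DKO and WT cells itself differed between stimulated and untreated cells was tested as an interaction in the fit over 10 libraries. None of the 10 members was called, where 0.133% of 15006 tested genes were called higher and 0.00666% lower. The members with the smallest p were Cdkn2d (1.45 ± 0.35 log2, SE, adjusted p = 0.152) and Cdkn1b (-0.55 ± 0.23, adjusted p = 0.389). DESeq2 called 1, Cdkn2d (1.43, adjusted p = 0.0294), where it called 174 of 13837 genes.

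Stimulated cells differed from untreated cells in several members, in WT and in DKO alike, as the plot of stimulation changes shows. The untreated and stimulated libraries come from separate deposited tables, so the table and the stimulation cannot be told apart. Libraries labelled untreated also carried transcripts of dividing cells: Mki67, a proliferation marker, was at 839 and 1609 CPM in stimulated DKO libraries, 1548 and 1559 CPM in stimulated WT libraries, 131, 209 and 275 CPM in untreated DKO libraries, and 423, 238 and 355 CPM in untreated WT libraries. The 20 genes of the S and M phase list summed to 7591 to 7888 CPM in stimulated DKO cells, 6519 to 7039 CPM in stimulated WT cells, 3534 to 4871 CPM in untreated DKO cells and 3409 to 4976 CPM in untreated WT cells. The part of cell division in the members' values was not tested.

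Of the positive regulators, Ccnd2 fell with stimulation in DKO cells (-0.71 ± 0.15, adjusted p = 0.00340) and in WT cells (-1.03 ± 0.15, adjusted p = 0.000219; log2 ± SE). Its levels in stimulated and untreated libraries, given above, did not overlap in DKO or in WT cells. Cdk4 fell in WT cells (-0.44 ± 0.15, adjusted p = 0.0336), a call lost on leaving out WT untreated replicate 1 or 3 or either stimulated WT library (adjusted p of 0.0624 to 0.215), while in DKO cells the value was -0.32 ± 0.15 (adjusted p = 0.129). Ccnd1 fell in DKO cells (-1.23 ± 0.42, adjusted p = 0.0389), on low counts and with a call lost on leaving out any of 7 libraries (adjusted p of 0.0510 to 0.147), while in WT cells the value was -0.98 ± 0.41 (adjusted p = 0.0737). Cdk6 was at -0.06 ± 0.15 in DKO cells (adjusted p = 0.799) and -0.14 ± 0.15 in WT cells (adjusted p = 0.467), and Ccnd3 at 0.27 ± 0.26 (adjusted p = 0.456) and -0.39 ± 0.26 (adjusted p = 0.248).

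Several of the brakes rose. Ccng2 rose in DKO cells (1.41 ± 0.25, adjusted p = 0.000988) and in WT cells (1.74 ± 0.24, adjusted p = 0.000146; log2 ± SE). Cdkn2c rose in DKO cells (1.35 ± 0.24, adjusted p = 0.00122) and in WT cells (1.01 ± 0.24, adjusted p = 0.00539). Among the 10 libraries of the fit, every stimulated library was above every untreated library of its genotype for both genes. Both additional untreated WT libraries, however, were above both stimulated WT libraries. They were at 149 and 117 CPM for Ccng2 and 35.1 and 39.4 CPM for Cdkn2c. With them counted as WT, the WT changes were 0.46 (adjusted p = 0.688) for Ccng2 and 0.39 (adjusted p = 0.583) for Cdkn2c. Cdkn2d rose in DKO cells (1.83 ± 0.25, adjusted p = 0.000138), whereas the WT value was 0.38 ± 0.24 (adjusted p = 0.218). Rb1 rose in WT cells (0.64 ± 0.15, adjusted p = 0.00440), whereas the DKO value was 0.33 ± 0.15 (adjusted p = 0.111). The interaction above is the test of these differences between genotypes, and it called none. Cdkn1b was at -0.30 ± 0.17 in DKO cells (adjusted p = 0.193) and 0.25 ± 0.16 in WT cells (adjusted p = 0.250).

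In all, 5 of 10 members changed with stimulation in DKO cells (3 higher, 2 lower), where 16.2% of 15006 tested genes were called higher and 16.8% lower. In WT cells it was also 5 of 10 (3 higher, 2 lower), where 17.8% were called higher and 22.8% lower. The median log2 fold change of the members was 0.11 in DKO cells, against -0.01 over all genes, and 0.05 in WT cells, against -0.02. With the additional WT libraries counted as untreated WT, 1 member was called in WT cells, where 2437 of 15262 genes were called.

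**Figure D4:**
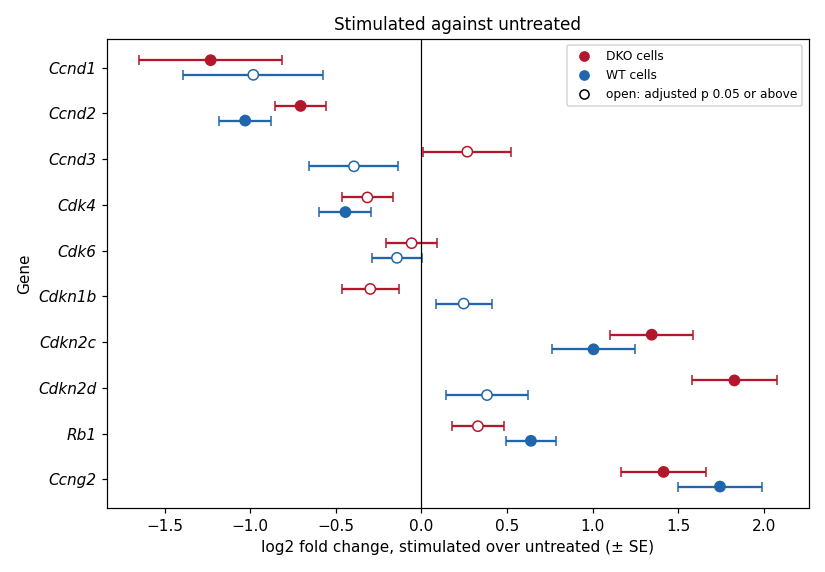
Log2 fold change of each member, stimulated over untreated, in DKO and WT cells; points are edgeR estimates, bars are ± 1 SE, and filled points have an adjusted p under 0.05. Ccnd2 lies left of 0 and Cdkn2c and Ccng2 right of 0, with filled points, in both genotypes.

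The wider RB and E2F pathway was read from a list of 37 genes. In stimulated cells 33 were tested between DKO and WT, 3 were higher and 0 lower, with a median of 0.13. Of all genes tested there, 5.09% were higher and 6.17% lower, with a median of -0.03. Cdkn1a, which encodes the CDK inhibitor p21, was the member of that list with the smallest p. It was at 29.4 and 17.4 CPM in stimulated DKO libraries, against 1.42 and 2.19 CPM in stimulated WT libraries, and at 50.5, 39.4 and 31.2 CPM in untreated DKO libraries, against 45.3, 54.7 and 44.4 CPM in untreated WT libraries. Cdkn1a was thus far lower in stimulated than in untreated WT cells (-4.70 ± 0.31 log2, SE, adjusted p = 4.12e-07). Between DKO and WT the log2 fold change was 3.62 ± 0.32 in stimulated cells (adjusted p = 0.00115), and the interaction was 3.93 ± 0.38 (adjusted p = 0.00250), the only call of that list there. Cdkn1a kept its call in stimulated cells under all 9 alternatives (3.25 to 3.97), and its interaction under all 17 (3.51 to 4.27). Ccng1, a p53 target that encodes cyclin G1, was higher by 0.93 ± 0.17 (adjusted p = 0.0140), and E2f6, which encodes a repressor E2F, by 0.72 ± 0.16 (adjusted p = 0.0254), each losing the call without either WT library.

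In untreated cells 35 genes of the RB and E2F list were tested between DKO and WT. Of these, 2 were higher and 1 lower, with a median of 0.01. Of all genes tested there, 8.81% were higher and 10.6% lower, with a median of -0.01. The higher ones of the list were Mnat1, a partner of CDK7 (0.51 ± 0.10, SE, adjusted p = 0.0106), and E2f6 (0.28 ± 0.08, adjusted p = 0.0412). The lower one was Cdkn2b, an INK4 inhibitor like Cdkn2d (-1.11 ± 0.33, adjusted p = 0.0468), at 1.32, 0.840 and 0.601 CPM in DKO libraries, against 1.94, 1.94 and 2.05 CPM in WT libraries. E2f6 lost its call under 10 of 15 alternatives and Cdkn2b under 9. With stimulation, 16.2% of all tested genes were higher and 16.8% lower in DKO cells, and 17.8% and 22.8% in WT cells. Of the list, 14 genes were higher and 4 lower in DKO cells, and 11 higher and 7 lower in WT cells. E2f8, a repressor E2F of S phase, was among them in both, by 2.07 ± 0.19 (adjusted p = 7.91e-06) and 1.40 ± 0.19 (adjusted p = 0.00012).

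FoxO factors drive Ccng2 and Cdkn1b in resting lymphocytes, and these factors with other targets of theirs were read from a list of 14 genes. Between DKO and WT, 0 were higher and 3 lower in stimulated cells, with a median of -0.66. Of all genes tested there, 5.09% were higher and 6.17% lower, with a median of -0.03. In untreated cells 0 of the list were higher and 5 lower, with a median of -0.45. Of all genes tested there, 8.81% were higher and 10.6% lower, with a median of -0.01. In stimulated cells Bcl2l11, which encodes the pro-apoptotic BIM, was lower (-0.87 ± 0.17, SE, adjusted p = 0.0177) and so was Sesn1 (-0.83 ± 0.18, adjusted p = 0.0223), both losing the call without either WT library. In untreated cells Bcl2l11 (-0.62 ± 0.09, adjusted p = 0.00322), S1pr1 (-1.44 ± 0.23, adjusted p = 0.00507) and Klf2 (-1.11 ± 0.19, adjusted p = 0.00628) were lower, and S1pr1 and Klf2 kept the call under all 15 alternatives. In stimulated cells S1pr1 (-1.05 ± 0.34, adjusted p = 0.0767) and Klf2 (0.14 ± 0.25, adjusted p = 0.734) were not called. With stimulation 8 of the 14 were higher and 1 lower in DKO cells, and 8 higher and 2 lower in WT cells. Of all tested genes, 16.2% were higher and 16.8% lower in DKO cells, and 17.8% and 22.8% in WT cells. The part of FoxO factors in the members' values was not tested.

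Genes of S and M phase were read from a list of 20. Between DKO and WT none was called in stimulated cells, with a median of 0.16. Of all genes tested there, 5.09% were higher and 6.17% lower, with a median of -0.03. In untreated cells 1 of the list was higher and 5 lower, with a median of -0.30. Of all genes tested there, 8.81% were higher and 10.6% lower, with a median of -0.01. The mitotic genes Plk1 (-1.41 ± 0.32, SE, adjusted p = 0.0167), Ccnb1 (-1.09 ± 0.25, adjusted p = 0.0194) and Cdc20 (-0.90 ± 0.23, adjusted p = 0.0249) were lower, and Mcm6, a subunit of the replicative helicase, was higher (0.48 ± 0.13, adjusted p = 0.0365). All of these 4 calls were lost without WT replicate 3 or without DKO replicate 3. So they were with the replicate block and with the additional WT libraries as WT. Of 15 alternatives, Cdc20 lost its call under 7, Ccnb1 and Mcm6 under 6 each, and Plk1 under 4. With stimulation 13 were higher in DKO cells and 12 in WT cells, and none was called lower. Of all tested genes, 16.2% were higher and 16.8% lower in DKO cells, and 17.8% and 22.8% in WT cells.

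For each member that passed in at least 1 comparison, the genes with the closest profile over the 10 libraries other than the additional ones were found by the root mean square (RMS) difference of gene-centred log2 CPM among about 9346 genes. The nearest to Ccnd2 was Tigar (RMS 0.0923), which lies 15.6 kb from it on chromosome 6, and then Pvr (0.0981). Closest to Cdkn2c were Ncaph (0.117) and Tk1 (0.122), closest to Ccng2 were Gas2l3 (0.192) and H2-Ob (0.196), and closest to Rb1 were Plekhm3 (0.0627) and Dock11 (0.0712). Cdk6 lay nearest to Rhot1 (0.0867) and Ints12 (0.0877), and Cdk4 to Dcps (0.0548) and Atp6v0e (0.0556). Cdkn2d (H4c9, 0.222, and Ifitm2, 0.259) and Ccnd1 (Ifi47, 0.281, and Alkbh7, 0.285) had no gene as close. These libraries share their groups and depth, so likeness is a description.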

How the data were processed

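RNA of 12 libraries was measured; all 5 groups come from the labels. The authors deposited raw counts per Ensembl gene, in 3 tables. The submitters' processing notes name FastQC 0.10.1, cutadapt 1.9.1, HISAT2 2.2.1 (GRCm39) and HTSeq 0.6.1. No source used here gives the strand setting of the counting, and counts of overlapping genes are uncertain. Exonic gene lengths are those of the deposited tables (unit other, in bases), and 12 columns of FPKM values were not used. Coordinates in the additional table are of an older build.

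The two-sided quasi-likelihood test of edgeR 4.0.16 (R 4.3.3) was run on counts scaled by TMM, for genes that filterByExpr kept (10 counts as minimum, 15 in total). Adjustment was by Benjamini-Hochberg over all these genes, and 0.05 was the threshold. DKO cells were set against WT cells within the untreated and within the stimulated table; the interaction and stimulation were tested in 1 fit over 10 libraries. SE stands for the size of the change divided by the root of F. Levels are CPM scaled by TMM over all 12 libraries on 52330 common genes, so they can differ slightly from the scaling of each fit. The additional WT libraries entered only an alternative. Scripts were tested on simulated data. DESeq2 1.42.0, RLE scaling, filters, left-out libraries, a block, and, chosen after seeing the data, Xist status were tried as alternatives. The count totals limit precision for Ccnd1 and Cdkn2d.

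Members, lists and motifs were chosen with earlier results of these data known. The text names every member, and up to 4 called genes with the smallest p from each list, except 1 gene of the FoxO list that is counted but not reported here; the likeness rule took genes of at least 5 CPM.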

Additional observations from a re-analysis of the deposited data

Results flagged for a closer look

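The additional WT libraries, which entered only an alternative to the comparisons of the main text, were far from the untreated WT libraries in several members. Their mean CPM over that of the untreated WT libraries was 4.56 for Ccng2, 3.11 for Cdk6, 3.01 for Cdkn1b, 2.32 for Cdkn2c, 1.81 for Cdkn2d and 1.78 for Rb1. Ccng2 was at 149 and 117 CPM in the additional libraries, against 35.8, 20.4 and 31.1 CPM in the untreated WT libraries. Cdk6 was at 583 and 402 CPM, against 145, 181 and 149 CPM, and Cdkn1b at 345 and 246 CPM, against 104, 88.9 and 102 CPM. In each of these 3 genes both additional libraries were above all 3 others. Other members were lower: Cdk4 was at 165 and 206 CPM, against 340, 308 and 308 CPM, and Ccnd3 at 36.0 and 39.7 CPM, against 90.2, 54.6 and 90.1 CPM. Monocyte and macrophage markers summed to 186 to 232 CPM in the additional libraries, against 65.0 to 69.8 CPM in the untreated WT libraries, and their part in these values was not tested. Cdk6 made up 38.1% ± 9.78 of the Cdk4 and Cdk6 counts per kb in the additional libraries (SD, n = 2) and 10.4% ± 1.51 in the untreated WT libraries (SD, n = 3). The additional libraries were counted in a table of their own, with coordinates of an older build, and table and library cannot be told apart.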

How the results depend on the processing

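Members called in untreated cells (2 as reported) numbered 0 with the replicate block, 1 in the single fit over 10 libraries and 0 with the additional WT libraries as WT. They numbered 4 without the Xist-high libraries, 4 with a term for Xist status, and 0 to 4 on leaving out each library. Over all genes the main fit called 2638 of 13561. The block called 786 of 13561, the single fit 1960 of 15006, and the fit with the additional WT libraries 319 of 14012. Without the Xist-high libraries 3421 of 13906 were called, and with the Xist term 4392 of 13561. Leaving out each library called from 923 of 13840 to 2779 of 13936 genes. Deviations of same-numbered untreated libraries correlated with r of -0.355, -0.352 and 0.139 over 13538 genes. The pairs numbered 1 and 2 each set a female library against a male one. The Xist-high libraries, DKO replicate 1 and WT replicate 2, gave 0.441. These values therefore cannot decide whether the numbers pair libraries. No label says that a number marks a shared animal or day, so the main fit had no block. With the replicate block Cdk6 was at 0.41 (adjusted p = 0.113) and Cdkn2d at -1.06 (adjusted p = 0.0728). In stimulated cells the count (1 as reported) was 2 with no filter, 4 in the single fit, and 0 to 7 on leaving out a library. For the interaction (0 as reported) it was 1 with DESeq2, where 174 of 13837 genes were called. With no filter it was 2, where 491 of 26882 genes were called. For stimulation in WT (5 as reported) it was 1 with the additional WT libraries as WT, where 2437 of 15262 genes were called.

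With the additional WT libraries as WT, the sign turned for Ccnd2 (-0.0098), Cdk6 (-0.50) and Mnat1 (-0.062) in untreated cells, for Cdk4 (-0.16), Cdkn1b (0.31), Rb1 (0.085) and Ccng2 (0.95) in the interaction, and for Cdkn1b (-0.61), Cdkn2d (-0.018) and Tfdp2 (-0.022) with stimulation in WT. Cdk6 turned in the interaction without the Xist-high libraries (-0.016) and with stimulation in DKO with the Xist term (0.0061). Leaving out libraries turned some uncalled values. DKO over WT, these ranged in stimulated cells over -0.26 to 0.014 for Ccnd1, -0.11 to 0.59 for Ccnd3, -0.053 to 0.48 for Cdk4 and -0.020 to 0.14 for Cdkn2c, and in untreated cells over -0.13 to 0.66 for Ccnd1. In the interaction they ranged over -0.64 to 0.011 for Ccng2, -0.18 to 0.39 for Cdk4 and -0.073 to 0.23 for Cdk6. With stimulation they ranged over -0.14 to 0.59 for Ccnd3 and -0.17 to 0.056 for Cdk6 in DKO, and -0.30 to 0.010 for Cdk6 and -0.10 to 0.54 for Cdkn1b in WT. The stimulated log2 ratio differences ranged over -0.26 to 0.71 for Ccnd2 to Ccnd3 and -0.13 to 0.66 for Cdk6 to Cdk4. Among the other member values 653 kept direction and side of the threshold, 28 lost a call and 33 gained one. The causes were not tested.

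Over all genes, 2638 were called in untreated cells, against 786 with the replicate block, 4392 with the Xist term and 319 with the additional WT libraries as WT. In stimulated cells 1625 were called, 45.2% of them higher, against 2847 with no filter and 3429 in the single fit, 56.0% of them higher. The interaction called 21, against 174 with DESeq2 and 491 with no filter. The stimulated comparison rests on 2 libraries a group, and low counts limit what can be seen of Ccnd1 and Cdkn2d.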

Other observations

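Some members differed between the libraries of a stimulated group. The stimulated DKO libraries 1 and 2 had Ccnd3 at 92.1 and 54.8 CPM, Cdk4 at 334 and 224 CPM, and Rb1 at 69.7 and 103 CPM. The numbered and the unnumbered stimulated WT libraries had Ccng2 at 74.9 and 116 CPM and Cdkn1b at 89.3 and 138 CPM. The share of counts taken by the top 10 genes was 9.28% and 7.76% in those DKO libraries, against 6.28% in WT replicate 1 and 6.00% in the unnumbered WT library.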
